A study of Ovis aries with 40 samples.

Results

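Gene expression of 10 cytosolic and small heat shock proteins was measured in the longissimus (LM) muscle of 40 sheep, on GeneChip Bovine Genome microarrays with 1 array per animal. The members were taken as the probe sets whose only gene symbol is HSPA1A, HSPA8, HSP90AA1, HSP90AB1, HSPH1, DNAJB1, HSPB1, HSPB6, HSPB8 or CRYAB. All 10 genes were found, with 21 of the 13292 probe sets that carry 1 symbol, and all 10 were among the 6360 of 9155 genes that reached the detection limit, a mean signal of 61.8. Each gene was read from its probe set of highest mean signal. A filter on low values therefore removed no member, although 4 of their 21 probe sets were below it.

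The animals were progeny of 6 Poll Dorset industry sires, 78 weeks old and raised to Australian industry standards. Sires 11, 2 and 7, with 8, 7 and 4 progeny, were classed as high for the estimated breeding value of eye muscle depth, and their 19 progeny make up the high muscling group. Sires 16, 17 and 5, with 8, 5 and 8 progeny, were classed as low, and their 21 progeny make up the low muscling group. Neither group carries a transgene or received a treatment, and the class belongs to the sire, so that each group rests on 3 families. Muscle was taken from a fixed site within 15 minutes of euthanasia and frozen.

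Heat shock proteins are chaperones, which bind unfolded or damaged proteins and help them to refold or to be degraded. The HSP70 proteins work in a cycle driven by J-domain proteins such as DNAJB1 and reset by exchange factors such as HSPH1, and pass some clients on to HSP90. The small heat shock proteins hold unfolded proteins without ATP and are abundant in skeletal muscle, where several bind to the Z-disc and the cytoskeleton. The transcription factor HSF1 switches on the inducible members after heat or other stress, while HSPA8 and HSP90AB1 are known as the constitutive forms.

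The arrays were alike in scale, with median signals from 56.1 to 67 and pairwise correlations over genes from 0.902 to 0.963. Of 9 skeletal muscle markers 7 were detected, and their summed signal ran from 154053 to 212749 in the high and from 149419 to 202808 in the low muscling group. As in any bulk tissue, fewer cells of a type and less RNA per cell cannot be told apart. MAS5 signal depends on the probes, here bovine probes on sheep RNA, and so the signals of different genes were not set against each other. The library of progeny 65 of sire 16, in the low muscling group, stood apart in several of the members, and results that rest on it are given with and without it.

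**Figure D1:**
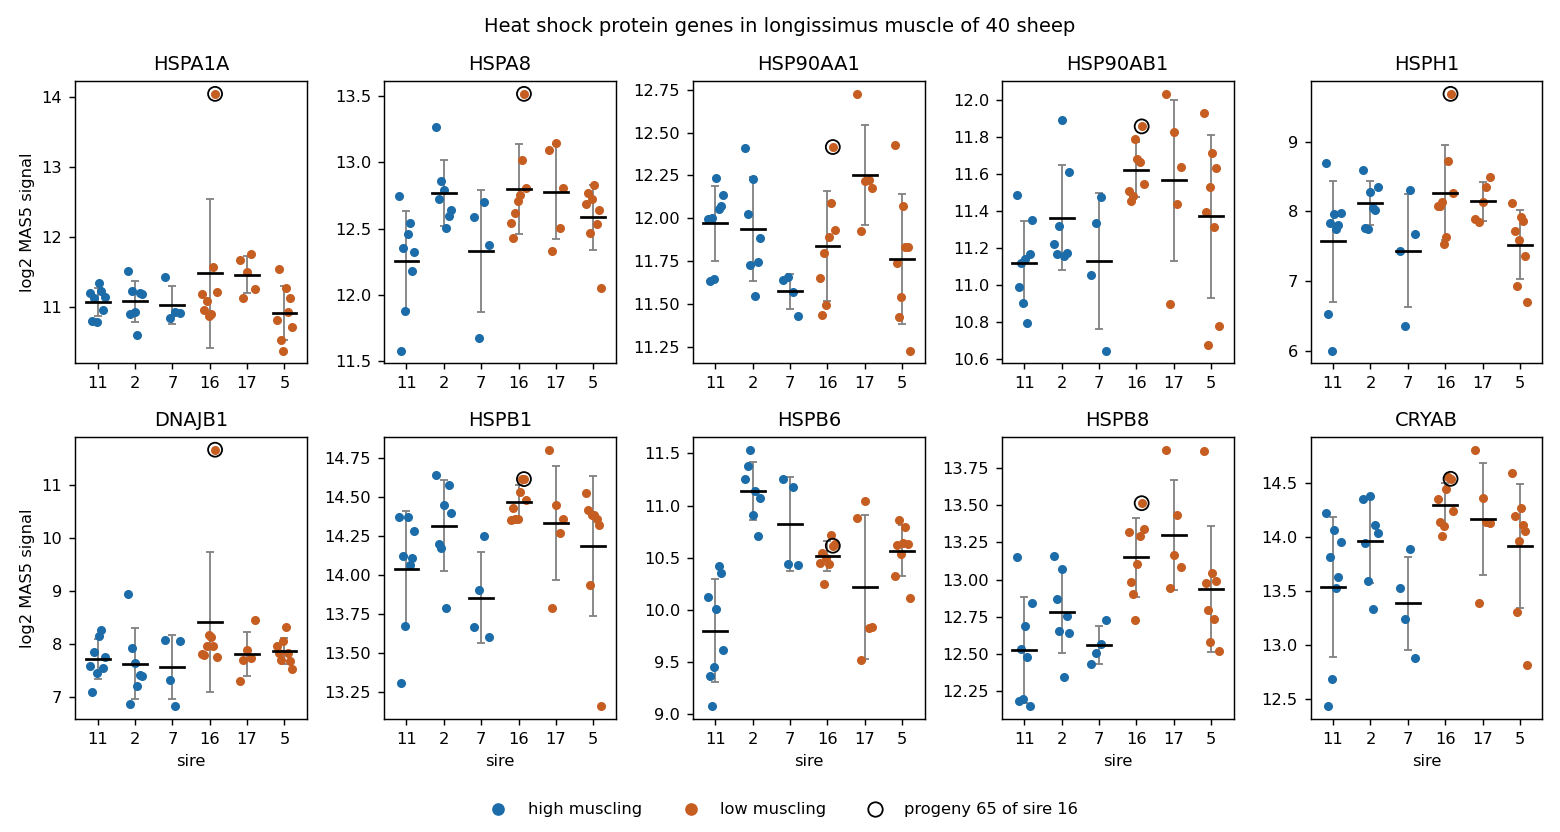
Log2 MAS5 signal of the 10 heat shock protein genes (vertical axes) in the progeny of the 6 sires (horizontal axes), with 1 point per animal, blue for high and orange for low muscling. Black lines are the means of the sires and grey bars their SD; the circled animal, progeny 65 of sire 16, was highest of 40 for HSPA1A, HSPA8, HSPH1 and DNAJB1, and the 8 progeny of sire 11 were below all those of sires 2 and 7 for HSPB6.

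The widest departure in the family came from 1 animal. Progeny 65 of sire 16 had the highest signal of the 40 arrays in 4 of the 10 members, HSPA1A, HSPA8, HSPH1 and DNAJB1, against 3.30% of all detected genes (210 of 6360). These 4 are the HSP70 machine of the cytosol with its J-domain and exchange partners. With 1 animal there is no test, and its values are given as a description.

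DNAJB1, the J-domain protein that delivers clients to HSP70, gave a signal of 3229.4 in this animal. In the other 39 animals the lowest, median and highest signals were 113.1, 221.2 and 492.8. The animal was thus 14.6-fold above the median and 6.55-fold above the next highest, and only ATF3 and NR4A2 were further above their medians among all detected genes. HSPA1A, the stress-inducible HSP70, gave 16867 against 1329.5, 2234.8 and 3445.3 in the others, which is 7.55-fold above the median and 4.90-fold above the next highest. It held the fifth place of the 6360 genes by distance above the median. HSPH1, the HSP110 exchange factor of HSP70, gave 825.2 against 64, 237.3 and 424.7 in the others (3.48-fold above the median, place 24). HSPA8, the constitutive HSC70, gave 11722.7 against 3063.6, 6287.9 and 9836.7 (1.86-fold above the median, place 183). No other array reached these values in any of the 4 genes.

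The other 6 members were within the range of the other animals. HSPB8, which works with BAG3 in the removal of damaged filamin, stood at 1.59-fold of the median of the others, with 11686 against a highest value of 14985.5. The HSP90 genes stood at 1.45-fold for HSP90AA1 and 1.38-fold for HSP90AB1. CRYAB, the alpha B-crystallin that binds desmin and titin, stood at 1.40-fold, HSPB1, also known as HSP27, at 1.20-fold and HSPB6, also known as HSP20, at 1.05-fold. The animal nevertheless ranked among the highest 4 arrays in 9 of the 10 members, all but HSPB6. The share of all detected genes for which this was so was not counted.

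Further probe sets gave the same order for most of these genes. The second probe set of DNAJB1 read 2761.9 against a median of 209.9 and a highest value of 498.9 in the others. For HSPH1, 3 of 4 probe sets were highest in this animal. HSPA1A is the symbol of 6 probe sets, which the annotation assigns to 2 gene IDs. The 2 probe sets of gene ID 281825 were both highest in this animal, the second with 2308.4 against a median of 423.3 and a highest value of 655. The 4 probe sets of gene ID 282254 were not, at 1.02-, 1.02-, 1.94- and 0.667-fold of the median of the others, and 2 of them were below the detection limit. Over the 40 arrays the latter correlated with the main HSPA1A probe set by r from -0.16 to 0.22, and the second probe set of 281825 by 0.89. The main probe sets of HSPA1A and HSP90AB1 are of a kind that can match more than 1 transcript, so that close copies of these genes may contribute to their signal.

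**Figure D2:**
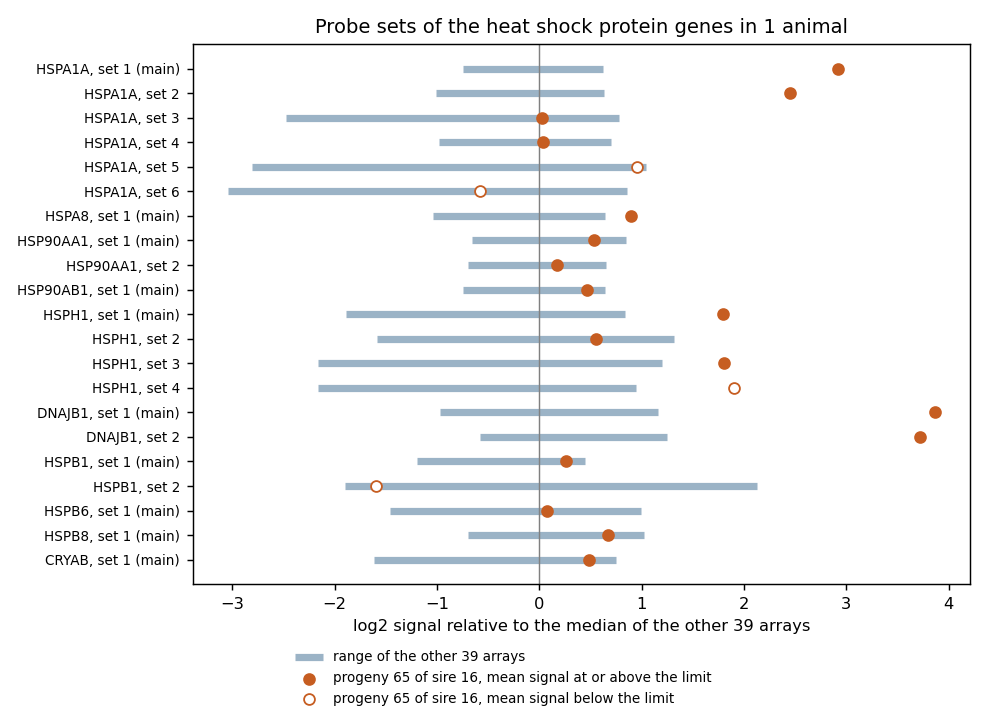
Signal of the 21 probe sets of the 10 genes in progeny 65 of sire 16, as log2 relative to the median of the other 39 arrays (horizontal axis); bars give the range of the other 39 and open points mark probe sets with a mean signal under the detection limit. The 2 probe sets of DNAJB1 lie 14.6- and 13.2-fold above the median, and 2 of the 6 probe sets with the symbol HSPA1A lie 7.55- and 5.45-fold above it.

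Some partners of HSP70 were also high in this animal. Of 11 further genes of the HSP70 system 1 was highest there, BAG3, the exchange factor that links HSP70 to HSPB8. It gave 5786.3 against a median of 1369.9 and a highest value of 3634.1 in the others. Of the 22 detected J-domain genes outside the members, 5 were highest in this animal, among them DNAJA1 with 1870.9 (3.43-fold of the median), DNAJB5 with 8185.1 (3.09-fold) and DNAJB9, of the endoplasmic reticulum, with 2553.4 (2.16-fold). Of 15 HSP90 cochaperones 2 were highest, PTGES3 and STIP1, which couples HSP70 to HSP90 and gave 3510.5 (1.86-fold). The lead of PTGES3 was narrow, at 11486.5 against 11469.8 in the next animal (1.20-fold of the median). DNAJC7, 1 of the 5 J-domain genes, was nearly tied, at 2625.7 against 2625.6. Others lay below the median of the other animals, such as BAG1 at 0.701-fold, DNAJB12 at 0.673-fold, DNAJC10 at 0.686-fold and PPID at 0.757-fold, and the median distance from the median over the 15 cochaperones was 0.03 on the log2 scale. HSF1 itself was at 628.5 against a median of 655, and HSF2 at 868.5 against 639.7, neither outside the range of the others. The 2 genes further above their medians than DNAJB1 were ATF3 and NR4A2, both transcription factors of early stress responses, at 19.4- and 17.3-fold of the median of the others.

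The array of this animal had the lowest median signal, 56.1. On this array 458 genes were more than 1 log2 unit from the median of the arrays, against 162 to 469 on the others, and 17 were more than 2 units above it, against 0 to 20. Its spiked controls (11.08 on the log2 scale), its actin 3' to 5' ratio (0.12) and its GAPDH 3' to 5' ratio (0.34) were within the range of the other low muscling arrays. The summed signal of 7 slow fibre markers, 136904, was the highest of the low muscling group, where the lowest was 75724.6 and the median 101219, while the highest in the high muscling group was 141064. The part of these in the HSP70 values was not tested, and the time between euthanasia and freezing of each animal was not given in the sources used here.

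The comparison of high with low muscling asks whether members differ between progeny of sires bred for more or less eye muscle. Over all genes 495 of 6360 passed the test (7.78%), and 5.50% were higher in the low and 2.28% in the high muscling group. Of the 10 members, 1 passed, HSPB8, which was higher in low muscling. This share is near the background and is no result about the family as a whole. In 9 of 10 members the difference, high minus low, was negative, with a median of -0.25 on the log2 scale, beside a median of -0.04 over all genes, of which 55.8% were lower in high muscling.

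HSPB8 had signals of 4544.1, 6399.9 and 9142.3 (lowest, median and highest) in high muscling and of 5875.5, 8431 and 14985.5 in low muscling. The groups overlapped, but 8 low muscling animals were above every high muscling animal and 7 high muscling animals were below every low muscling one. The mean signal was 6476 ± 1390 (SD, n = 19) in high and 9092 ± 2489 (SD, n = 21) in low muscling, and the fitted difference was -0.49 ± 0.15 (SE) on the log2 scale, or 1.40-fold (limma with sire as a random block, adjusted p = 0.0337). The mean log2 signals of sires 16, 17 and 5 were 13.15, 13.30 and 12.94 and those of sires 11, 2 and 7 were 12.53, 12.79 and 12.56, so that every low sire was above every high sire, which was so for 11.4% of all genes. The call did not hold with quantile normalization (adjusted p = 0.0972), with sire means as the samples (0.225), or without the progeny of sire 5 (0.0676), 7 (0.108), 11 (0.0567) or 16 (0.250), by limma in each case. The difference itself ran from -0.59 to -0.39 in these settings, beside -0.49. Without progeny 65 the difference was -0.47 (adjusted p = 0.0450, limma).

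Some markers of other cells differed in the same contrast, where 5.50% of all genes were higher in low muscling. Of the 6 fibroblast markers 5 were higher in low muscling, COL1A1, COL1A2, COL3A1, DCN and FBN1, with all 6 detected, and their summed signal had a lowest, median and highest value of 5349, 9371.4 and 12888.6 in high and of 8277.1, 13832 and 24780.7 in low muscling. Of 7 smooth muscle markers, all detected, TAGLN and MYLK were higher in low muscling, with sums from 4926.4 to 8161.8 in high and from 5565.5 to 10039.8 in low muscling. MYH11 and SMTN leaned the other way, at 0.07 and 0.11, and were not called. Of 4 detected leukocyte markers AIF1 was higher in low muscling, with sums from 567.5 to 1129.5 and from 618.7 to 1882.1. No marker of these lists was at 0. No detected marker of skeletal muscle, slow or fast fibres, endothelium (5 detected) or fat cells (5 detected) passed the test. The part of the cell markers in the HSPB8 difference was not tested.

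CRYAB had signals of 5542.9, 14385.1 and 21227.7 in high and of 7203.2, 18061.6 and 28580.7 in low muscling. Its difference was close to that of HSPB8 in size, at -0.47 ± 0.21 (SE), with more spread, and did not pass (adjusted p = 0.184, limma). HSP90AB1, the constitutive HSP90, had signals of 1599.9, 2298.8 and 3803.6 in high and of 1635.9, 2989.9 and 4190.5 in low muscling, a difference of -0.31 ± 0.14 (adjusted p = 0.193, limma). In both genes 18 of 21 low muscling animals lay above the median of high muscling. Both passed in a fit without the sire block, which takes the animals of a sire as independent (adjusted p = 0.0276 for CRYAB and 0.0267 for HSP90AB1, limma).

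The HSP70 members showed smaller differences beside their errors, at -0.21 ± 0.24 (SE) for HSPA1A, -0.26 ± 0.15 for HSPA8, -0.24 ± 0.28 for HSPH1 and -0.40 ± 0.31 for DNAJB1, with adjusted p from 0.333 to 0.687 (limma). The second probe set of DNAJB1 gave -0.08 ± 0.30 (SE, adjusted p = 0.912, limma). Without progeny 65 of sire 16 the differences were -0.08 for HSPA1A, -0.22 for HSPA8, -0.16 for HSPH1 and -0.23 for DNAJB1, and the median DNAJB1 signals were 192.2 in high and 228.2 in low muscling. HSP90AA1, the inducible HSP90, which is needed for myosin folding in zebrafish muscle, differed by -0.07 ± 0.14, HSPB1 by -0.24 ± 0.15 and HSPB6 by 0.10 ± 0.21 (adjusted p of 0.831, 0.374 and 0.848, limma). The sign of HSPB6 turned, to -0.03, with the spiked controls as a covariate.

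**Figure D3:**
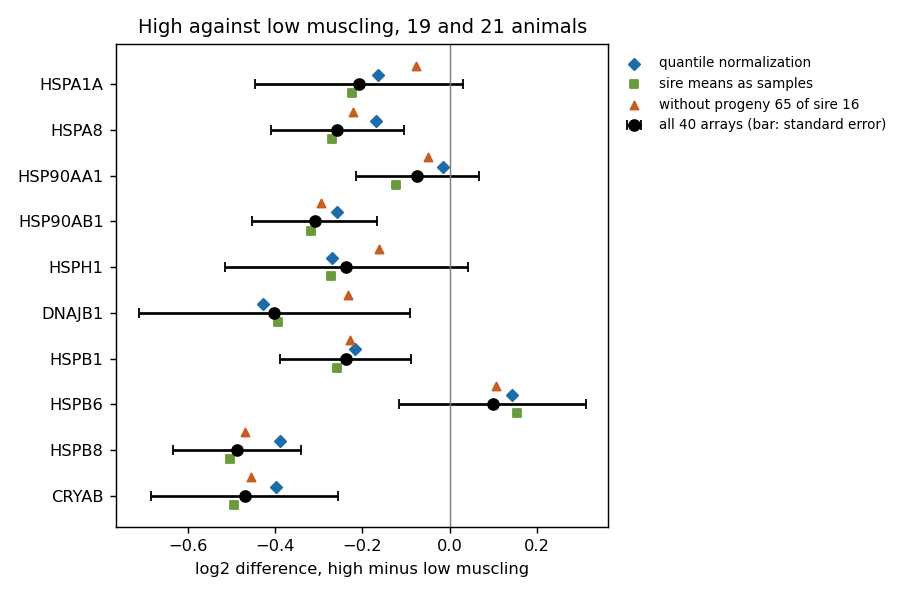
Log2 difference in signal, high minus low muscling (horizontal axis), of the 10 genes, for all 40 arrays with the standard error as a bar (black) and under 3 other settings (coloured markers, no error shown). HSPB6 is the only gene above 0 in these 4 settings (it was at -0.03 with the spiked controls as a covariate), and the values of HSPA1A and DNAJB1 move from -0.21 and -0.40 to -0.08 and -0.23 without progeny 65 of sire 16.

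The other chaperones were counted in lists grouped by function, to be read beside the 5.50% of all genes that were higher in low and the 2.28% that were higher in high muscling. Of 22 J-domain genes, DNAJB5 (-0.91, adjusted p = 0.0227) and DNAJB9 (-0.86, adjusted p = 0.00567) were higher in low muscling and none in high (limma). Of 11 subunits of the chaperonin CCT and of prefoldin, which fold actin and tubulin, 3 were higher in low muscling, CCT2, CCT4 and CCT8 (-0.54, adjusted p = 0.00970 for CCT8, limma), and 10 of 11 had a negative difference, with a median of -0.29. Of 15 cochaperones of HSP90, SUGT1 was higher in low muscling (-0.35), and of 6 mitochondrial chaperones HSPE1, the partner of HSP60 (-0.39). Of 11 further genes of the HSP70 system, BAG6 was higher in high muscling (0.35, adjusted p = 0.0147, limma) and none in low. Of 3 heat shock factors HSF2 was higher in low muscling (-0.53, adjusted p = 0.0411, limma), while HSF1 differed by 0.11 and did not pass. None of the 3 other small heat shock proteins detected, HSPB2, HSPB3 and CRYAA, and none of 7 genes of chaperone-assisted autophagy and its clients passed.

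Sire families within a muscling group were compared next, with progeny as the replicates. Over all genes 1402 of 6360 differed among the sires of a group (22.0%, limma F test). Of the members, each read from its main probe set, 1 did, HSPB6. HSPB6 is a small heat shock protein of muscle that is phosphorylated by protein kinase A and is known for its role in relaxation of smooth muscle.

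HSPB6 signals in the progeny of sire 11 were 540.1, 908.4 and 1372.2 (lowest, median and highest, n = 8). In the progeny of sire 2 they were 1677.7, 2253.6 and 2966.5 (n = 7), and the 4 progeny of sire 7 read 1381.8, 1390.6, 2315.4 and 2439.3. All 8 progeny of sire 11 were therefore below all 11 progeny of the other high muscling sires. The fitted difference of sire 11 from the mean of sires 2 and 7 was -1.18 ± 0.18 (SE) on the log2 scale, or 2.27-fold (adjusted p = 1.5e-05, limma), and 11.8% of all genes were called lower in sire 11 in the same contrast. Among the low muscling sires the medians were 1469.7 for sire 16, 912.6 for sire 17 and 1580.8 for sire 5. In order of mean log2 signal the sires were 2, 7, 5, 16, 17 and 11. Within groups the contrasts of sire 2 with 7, sire 16 with 5 and sire 17 with the other low sires did not pass (adjusted p of 0.908, 0.985 and 0.309, limma). The last of these was -0.32 ± 0.20 (SE).

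High and low muscling did not separate HSPB6 with all sires included. Sire 11 had the lowest mean of the 6 sires, so that leaving it out raises the high muscling group. Without its progeny the HSPB6 difference was 0.56 (adjusted p = 0.0209, limma), in a fit that called 685 of 6360 genes. This was the 1 call for HSPB6 in 16 settings, and it is no separate test of muscling. Without the progeny of sire 2 the difference was -0.23 (adjusted p = 0.636, limma). Of the 3 other small heat shock proteins, HSPB2 was called lower in sire 11 (-0.48, adjusted p = 0.0369, limma), while HSPB3 was at 0.32 and not called. Of the 3 heat shock factors HSF4 was called lower (-1.33, adjusted p = 2.7e-05, limma), with HSF2 at 0.08 and not called. Of 22 J-domain genes 2 were lower and 4 higher in sire 11, and of 15 HSP90 cochaperones 4 were lower and 2 higher. Of 11 further genes of the HSP70 system 2 were lower and none higher. Of 11 chaperonin and prefoldin subunits 2 were lower and 2 higher, and of 7 autophagy and client genes 2 were lower. No mitochondrial chaperone was called. The lower counts stand beside 11.8% of all genes, while the share called higher over all genes was not counted, so that the higher counts are description only. Of the marker lists, 3 of 7 smooth muscle markers were called lower in sire 11, with sums of 4926.4 to 6622.1 against 5592.1 to 8161.8 in sires 2 and 7. Of 7 skeletal muscle markers 1 was lower, with sums of 154053 to 186556 against 156371 to 212749, and of 6 fibroblast markers 2 were lower, with sums of 5349 to 11784.4 against 6429.5 to 12888.6. The GAPDH 3' to 5' ratio of the array correlated with HSPB6 by r = -0.42 (n = 40). Its median on the log2 scale was 0.37 in sire 11 and 0.30 over all high muscling arrays. With the 3' to 5' ratio of actin and GAPDH as a covariate, the HSPB6 difference of sire 11 was -1.13 (adjusted p = 0.000258, limma). The part of the markers and of the ratio in the HSPB6 difference was not tested.

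HSP90AA1, read from its main probe set, did not pass the F test among sires (adjusted p = 0.0584, limma). In the single contrasts, however, it was higher in sire 17 than in the other low muscling sires. Its 5 progeny read 3884.8, 4629.8, 4768.1, 4781.8 and 6780.1, against 2767.5, 3680.9 and 5466.5 (lowest, median and highest) in sire 16 and 2397.2, 3532.6 and 5512.6 in sire 5. The ranges overlapped and only the highest progeny of sire 17 was above all 16 others. The difference was 0.45 ± 0.15 (SE, adjusted p = 0.0384, limma), in a contrast where 4.37% of all genes were called higher in sire 17. It did not pass with the mean over both probe sets (0.32, adjusted p = 0.140) or with no detection filter (adjusted p = 0.0587, limma). The second probe set of HSP90AA1, which correlated with the main one by r = 0.40, gave 0.18 ± 0.15. In a fit over probe sets, this second probe set passed the F test among sires (adjusted p = 0.0326, limma). There it was lower in sire 11 than in the other high muscling sires (-0.53 ± 0.14, adjusted p = 0.00689, limma). The main probe set leaned the other way in that contrast, at 0.22 ± 0.14, and was not called (adjusted p = 0.303, limma). Without progeny 65 of sire 16 the main probe set passed both, the F test (adjusted p = 0.0299) and the sire 17 contrast (0.50, adjusted p = 0.0171, limma).

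HSPA1A was called in the same contrast only without progeny 65. The 5 progeny of sire 17 read 2234.8, 2446.9, 2884.8, 3269.2 and 3445.3. In sire 16 the lowest, median and highest signals were 1868.3, 2250.3 and 16867, or 1868.3, 2175 and 3039.4 without that animal, and in sire 5 they were 1329.5, 1873.4 and 2972.2, so that the ranges overlapped. The difference of sire 17 was 0.27 ± 0.27 (SE, adjusted p = 0.580) with all arrays and 0.45 ± 0.15 (adjusted p = 0.0348, limma) without progeny 65, where 4.50% of all genes were called higher in sire 17. With all arrays the adjusted p ran from 0.422 to 0.682 over the other settings, and the sign turned with the mean over all probe sets (-0.14), which takes in those of gene ID 282254.

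The members varied together across animals. Of the 45 pairs of members 44 had a positive Pearson r, with a median of 0.54, while the median for any pair of detected genes was 0.01. With the mean of each sire removed the median was 0.55, within high muscling it was 0.48 and within low muscling 0.61, and without progeny 65 it was 0.50. After Benjamini-Hochberg adjustment over the 45 pairs, 34 passed by Pearson r and 31 by Spearman rho (two-sided permutation tests of 100000 resamples, which take the progeny of a sire as independent). The share that would pass over all pairs of detected genes was not counted, so that these counts are description only. The points share the array scaling, and the correlation with the median signal of the array was -0.40 for HSPA1A and -0.41 for DNAJB1. The actin 3' to 5' ratio of the array correlated with HSPB1 by r = 0.48 and with CRYAB by r = 0.43 (n = 40). For the GAPDH 3' to 5' ratio and HSPB6 r was -0.42. With the 3' to 5' ratio of actin and GAPDH together as a covariate, the median r between members was 0.55. In that setting HSPB1 with CRYAB gave r = 0.95.

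**Figure D4:**
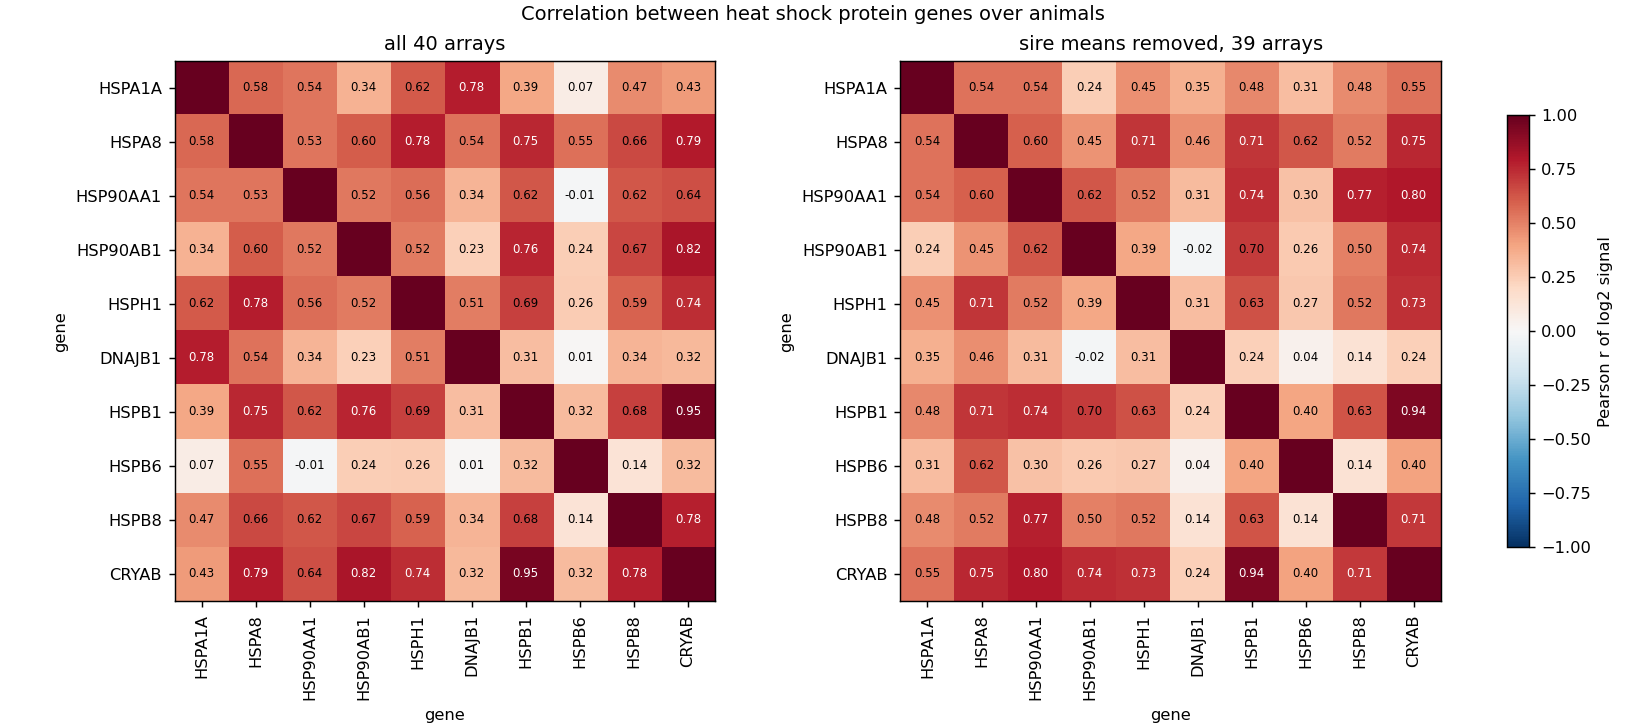
Pearson r of log2 signal between the 10 genes (both axes), over all 40 arrays on the left and, on the right, with sire means removed and progeny 65 of sire 16 left out. HSPB1 with CRYAB is at 0.95 and 0.94, HSPA1A with DNAJB1 at 0.78 and 0.35, and HSPB6 is pale in both, with its highest value for HSPA8 (0.55 and 0.62). On the right DNAJB1 is pale as well, from -0.02 with HSP90AB1 to 0.46 with HSPA8.

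The tightest pair was that of the small heat shock proteins HSPB1 and CRYAB, with r = 0.95 and rho = 0.92 (adjusted permutation p = 4.1e-05 and 5.0e-05, from the smallest p that the resamples can give, 1e-05). It remained at r = 0.94 without the 2 farthest animals and with sire means removed, and at 0.94 within high and 0.96 within low muscling. HSP90AB1 with CRYAB gave r = 0.82 and rho = 0.83, HSPB8 with CRYAB r = 0.78 and rho = 0.87, and HSPA8 with HSPH1 r = 0.78 and rho = 0.53, each with an adjusted permutation p for r of 4.1e-05. These were at 0.79, 0.76 and 0.71 without the 2 farthest animals. Over all 40 arrays HSPB6 was the least like the rest, from r = -0.01 with HSP90AA1 to 0.55 with HSPA8. This did not hold with sire means removed and progeny 65 left out. There HSPB6 ran from 0.04 with DNAJB1 to 0.62 with HSPA8, and DNAJB1 from -0.02 with HSP90AB1 to 0.46 with HSPA8.

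For HSPA1A and DNAJB1 the relation differed in value between the groups. Over all 40 arrays r was 0.78 and rho 0.39 (adjusted permutation p = 0.00143 and 0.0217). Without the 2 farthest animals r was 0.37, and without progeny 65 it was 0.30 and rho 0.34. Within high muscling, which does not hold that animal, r was 0.73 and rho 0.72 (n = 19), and 0.64 and 0.67 without progeny 3 of sire 2, the highest of the group in both genes. Within low muscling r was 0.81 and rho 0.08 (n = 21), and -0.14 and -0.07 without progeny 65. The value in low muscling thus rested on 1 animal, and the difference between the groups was not tested.

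Some animals lay at the ends of several members. Progeny 39 of sire 17 had the highest signal of HSP90AA1, HSP90AB1, HSPB1, HSPB8 and CRYAB, with 28578.5 for HSPB1 and 28580.7 for CRYAB, but its DNAJB1 signal was 156.9, the lowest of the low muscling group. Progeny 3 of sire 2, in high muscling, was among the highest 4 arrays in 6 members, with 9836.7 for HSPA8 and 492.8 for DNAJB1. The second replicate of high muscling, a progeny of sire 11, was among the lowest 4 arrays in 7 members, with 5542.9 for CRYAB, 10164.8 for HSPB1 and 3063.6 for HSPA8. Progeny 94 of sire 5 was among the lowest 4 in 7 as well, with 7203.2 for CRYAB and 9151.9 for HSPB1, and progeny 35 of sire 11 in 5, with 64 for HSPH1. At both ends these animals come from both muscling groups. In the order named, their arrays had 349, 409, 447, 376 and 469 genes more than 1 log2 unit from the median. The median over all arrays but that of progeny 65 was 280. The share of all detected genes at the ends of these arrays was not counted, so that the member counts are description only.

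The genes most like each member, by Pearson r of log2 signal over the 40 arrays are given next for each in turn. For HSP90AB1 the closest was AHSA1, the activator of the HSP90 ATPase (r = 0.86), then MUSTN1 (0.82) and FLNC, the filamin of muscle (0.82). For HSP90AA1 they were HSPA4, an HSP110 (0.77), FLNC (0.76) and STIP1 (0.76), and for HSPH1 they were HSPA4 (0.81), DNAJA1 (0.78) and ABRA (0.75). CRYAB and HSPB1 both had MORF4L2 (0.93 and 0.87) and TNFRSF12A, a receptor of the cytokine TWEAK (0.92 and 0.86), followed by DNAJA4 for CRYAB (0.89) and FLNC for HSPB1 (0.84). HSPB8 was closest to LMCD1 (0.89), IFRD1 (0.86) and THBS1 (0.86), and HSPA8 to DNAJB5 (0.81), AKIRIN2 (0.78) and TNFRSF12A (0.77).

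HSPB6 had other neighbours, UBA1, the ubiquitin-activating enzyme (0.83), RNF123 (0.83) and ABHD17A (0.83), and these fell to 0.66, 0.62 and 0.63 with sire means removed. HSPA1A and DNAJB1 shared the same 3, TRIB1 (0.75 and 0.72), HSPA5, the HSP70 of the endoplasmic reticulum (0.71 and 0.70), and NFIL3 (0.69 and 0.69). Without progeny 65 these were 0.36, 0.32 and 0.20 for HSPA1A and 0.28, 0.30 and 0.21 for DNAJB1, and none of them was then among the 3 closest.

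In spread among animals, the log2 SD of DNAJB1 (0.74) was above that of 89.9% of detected genes, that of HSPH1 (0.67) above 86.3%, of HSPB6 (0.57) above 80% and of HSPA1A (0.56) above 78.4%. Without progeny 65 the SD of DNAJB1 was 0.42 (59.1%) and that of HSPA1A 0.31 (30.96%), while HSPH1 (0.61, 82.8%) and HSPB6 (0.58, 80.6%) changed little. The smallest SD of the 10 was that of HSP90AA1 with all arrays (0.33, 35.9%) and that of HSPA1A without progeny 65, where HSP90AA1 was at 0.32.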

How the data were processed

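Total RNA of LM muscle was hybridised to GeneChip Bovine Genome arrays, 1 per animal. What the authors deposited are MAS5 intensity signals, linear and scaled to a trimmed mean of 200 per array, and the MAS5 version is not given in the sources used here. No further normalization was applied, and log2 signals were analysed. Gene symbols were those of the platform annotation, with 13292 of 24016 probe sets other than controls carrying 1 symbol, 86 several and 10638 none, and a gene was represented by its brightest probe set on average. A gene counted as detected from a mean signal of 61.8 upward, which is the median of the non-control probe sets. Array signals have no counts, so that precision is limited by how many arrays there are.

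The muscling groups were compared in R 4.3.3 by limma 3.58.1 on 6360 detected genes. Sire entered as a random block (correlation 0.135), since every sire had progeny in 1 group only. Sires within groups were compared with an F test and contrasts, with 1 mean per sire. P-values were Benjamini-Hochberg adjusted over all 6360 genes for each contrast, with a threshold of 0.05. Progeny were taken as separate animals from their labels. Correlations used Python 3.11.15, scipy 1.17.1 and 100000 permutations. The fits were tested on simulated data. The genes and lists were chosen with earlier results of these data known. Named genes were all members, in each chaperone list the 2 with the smallest p in each test, for each member the 3 with the highest r, and in marker lists the most abundant and the smallest p. Genes named for their values in progeny 65, the further called list genes, and the animals at the ends of the ranges were chosen after the values were seen. Alternatives were quantile normalization, median centring, a floor, no detection filter, all probe sets, no block, sire means, spiked controls or the 3' to 5' ratio as a covariate, and leaving out each sire; those without progeny 65 and with the 3' to 5' ratio, and all those of the named sire contrasts and named pairs, were added after the data were seen. Probe sequences and genome coordinates were not used here.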

Additional observations from a re-analysis of the deposited data

Results flagged for a closer look

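Within sires, the highest and lowest progeny of each member were set against the gap to the nearest other progeny by Dixon's criterion, on log2 signals. This picked out 6 of the 60 combinations of gene and sire, where chance gives about 1 in 20 if combinations are independent. Here they share animals and the members vary together, so that the count is description only. The signals below are on the linear scale. Progeny 65 of sire 16 stood above the other progeny for HSPA1A, with 16867 against 1868.3 to 3039.4, and for DNAJB1, with 3229.4 against 215.8 to 288. Progeny 18 of sire 7 stood above the other 3 for HSPA1A, with 2749.1 against 1828.8 to 1951. Progeny 94 of sire 5 was below the other progeny for HSPA8, with 4257 against 5656.8 to 7264.8, and for HSPB1, with 9151.9 against 15712.1 to 23572.2. Progeny 11 of sire 5 was above the other progeny for HSPB8, with 14924.8 against 5875.5 to 8431.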

How the results depend on the processing

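The count of members called between high and low muscling, 1 in the main analysis, was 0 with quantile normalization, 3 without the sire block (HSP90AB1, HSPB8 and CRYAB) and 0 with sire means as samples, and 0 to 1 on leaving out each sire. Over all genes the 495 calls became 1586 without the block, 308 with the spiked controls as a covariate and 0 with sire means (limma; 886 genes with an unadjusted p under 0.05, and a smallest adjusted p of 0.0726), and ranged from 23, without sire 5, to 1221, without sire 17. Leaving out a sire also leaves fewer animals. The members called among sires, 1 in the main analysis, were 2 with quantile normalization, with median centring, with the spiked controls and without low muscling replicate 7, which is progeny 65, and 0 (without sire 11) to 2 on leaving out each sire, where the calls over all genes ranged from 407 to 1389 (1460 without progeny 65). Signs turned for HSPB6 with the spiked controls as a covariate (-0.0288) and, on leaving out a sire, for HSPB6 (-0.23 to 0.56) and HSP90AA1 (-0.171 to 0.0593), and for HSPA1A in sire 17 against sires 16 and 5 with the mean over all probe sets (-0.142). The median r between members was 0.34 with the mean over all probe sets, where HSPB1 with CRYAB gave 0.15; the second probe set of HSPB1 is below the detection limit. The cause of the other changes was not tested. The lower HSPB6 of sire 11 held in the 8 alternatives in which its contrast was run, from -1.23 to -1.11. No paired analysis was possible because replicate numbers were given in accession order and pair no animals. With 3 sires a group and 1 array an animal, differences between groups rest on few families, and bovine probes may read sheep transcripts unevenly.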
